A study of Homo sapiens with 30 samples.

Results

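The genes described here are 4 metallothionein genes, MT2A, MT1X, MT1E and MT1F, and SLC30A1, which codes for a zinc exporter. They were taken by gene name from the deposited expression files, where all 5 were found, each on 1 row, among 22538 gene names. All 5 passed the filter on low values (at least 1 FPKM in at least 3 libraries), as did 8531 genes in all, and none was listed at 0 in any library. FPKM is a level per length: fragments of a transcript scaled to its length in kilobases and to the mapped reads of the library.

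BEAS-2B is an established, immortalised human bronchial epithelial cell line. Cells were exposed for 30 min to 1 of 4 hookah smoke conditions and RNA was taken 2 h or 24 h after the exposure. The conditions were charcoal without shisha, herbal (non-tobacco) shisha on charcoal, tobacco shisha on charcoal, and tobacco shisha on an electronic heater, against internal control wells of the same time. With 3 wells for each of the 10 groups there were 30 libraries. The dose was the highest one without LDH release at 24 h, so it was not matched between the conditions by mass of smoke. The sources used here do not say how the control wells were handled, or whether the 3 wells of a group were separate cultures. The p-values below therefore measure the spread between wells, which may be technical.

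Metallothioneins are small, cysteine-rich proteins that bind zinc, copper and cadmium and hold zinc in reserve. SLC30A1, also called ZnT1, moves zinc out of the cell across the plasma membrane. When free zinc in the cell goes up, or when cadmium enters it, the transcription factor MTF1 binds short metal response elements in the promoters of both kinds of gene and raises their transcription. Several metallothionein genes also respond to glucocorticoids and to oxidants. In RefSeq annotation of GRCh38.p14 the metallothioneins lie together on chromosome 16: MT2A at chr16:56608584-56609497, MT1E at chr16:56625781-56627112, MT1F at chr16:56657959-56659303 and MT1X at chr16:56682470-56684196. SLC30A1 lies at chr1:211571568-211579161.

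The promoters of SLC30A1, MT1X and MT2A are shown because the first and second of these genes were higher together 2 h after 3 of the 4 exposures while the third was not. Each is the 250 bases before the RefSeq start of the gene, on the strand of the gene, and the capitals mark every match to the core of the metal response element, searched as TGCACNC or TGCGCNC on both strands.
SLC30A1: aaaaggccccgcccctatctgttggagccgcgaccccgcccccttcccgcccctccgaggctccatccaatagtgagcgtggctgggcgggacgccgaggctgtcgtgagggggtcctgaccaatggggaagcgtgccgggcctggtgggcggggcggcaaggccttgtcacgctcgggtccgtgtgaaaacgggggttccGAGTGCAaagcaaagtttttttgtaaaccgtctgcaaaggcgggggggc
MT1X: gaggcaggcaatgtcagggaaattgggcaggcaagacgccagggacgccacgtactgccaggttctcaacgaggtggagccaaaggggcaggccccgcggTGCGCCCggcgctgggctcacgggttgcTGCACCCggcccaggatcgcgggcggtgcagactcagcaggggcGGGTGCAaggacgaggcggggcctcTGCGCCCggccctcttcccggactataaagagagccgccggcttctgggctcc
MT2A: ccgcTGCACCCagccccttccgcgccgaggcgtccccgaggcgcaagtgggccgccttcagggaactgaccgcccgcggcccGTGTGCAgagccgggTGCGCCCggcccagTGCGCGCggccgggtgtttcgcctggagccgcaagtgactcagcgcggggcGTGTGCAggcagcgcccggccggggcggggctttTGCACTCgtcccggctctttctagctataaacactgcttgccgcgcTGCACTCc
The windows are chr1:211579162-211579411 on the minus strand for SLC30A1, chr16:56682220-56682469 for MT1X and chr16:56608334-56608583 for MT2A. The SLC30A1 window held 1 match, 43 to 49 bases before the start. MT1X had 4 matches and MT2A had 7, and none of them overlapped with another. Of 35116 RefSeq promoters of the same length, 24.8% held at least 1 match, 0.37% at least 4 and 0.0313% at least 7. The windows were also richer in G and C (66.4% for SLC30A1 up to 73.2% for MT2A) than the median promoter, at 58.0%. A match is a description of these letters and not a measured binding site. MT1E and MT1F had no entry among the promoters used here, so their promoters were not searched.

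Across the 30 libraries, the log2 values of wells of one group correlated at 0.983 to 0.992, and FPKM values summed to between 199985 and 220259 per library. Read counts are not in the files used here, so the depth is unknown. Of the epithelial markers, KRT8, KRT18 and KRT19 were expressed, while KRT5, KRT14, KRT15, TP63 and CDH1 had group means of at most 0.126 FPKM and EPCAM of at most 0.780. Markers of ciliated and secretory cells stayed below the filter, with SCGB1A1 and SCGB3A1 listed at 0. The fibroblast genes COL1A1, COL1A2, PDGFRB and THY1 passed the filter, 4 of 8 on that list, and the 8 summed to 138 to 367 FPKM per library. CD14 was the only 1 of 5 immune markers to pass, and no endothelial marker did. The third well of tobacco on the electric heater at 2 h stood apart for SLC30A1 and for the genes most like it, as described below. The tests of SLC30A1 that use this well are given with and without it. Most values of other genes in that group are given with it only.

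**Figure D1:**
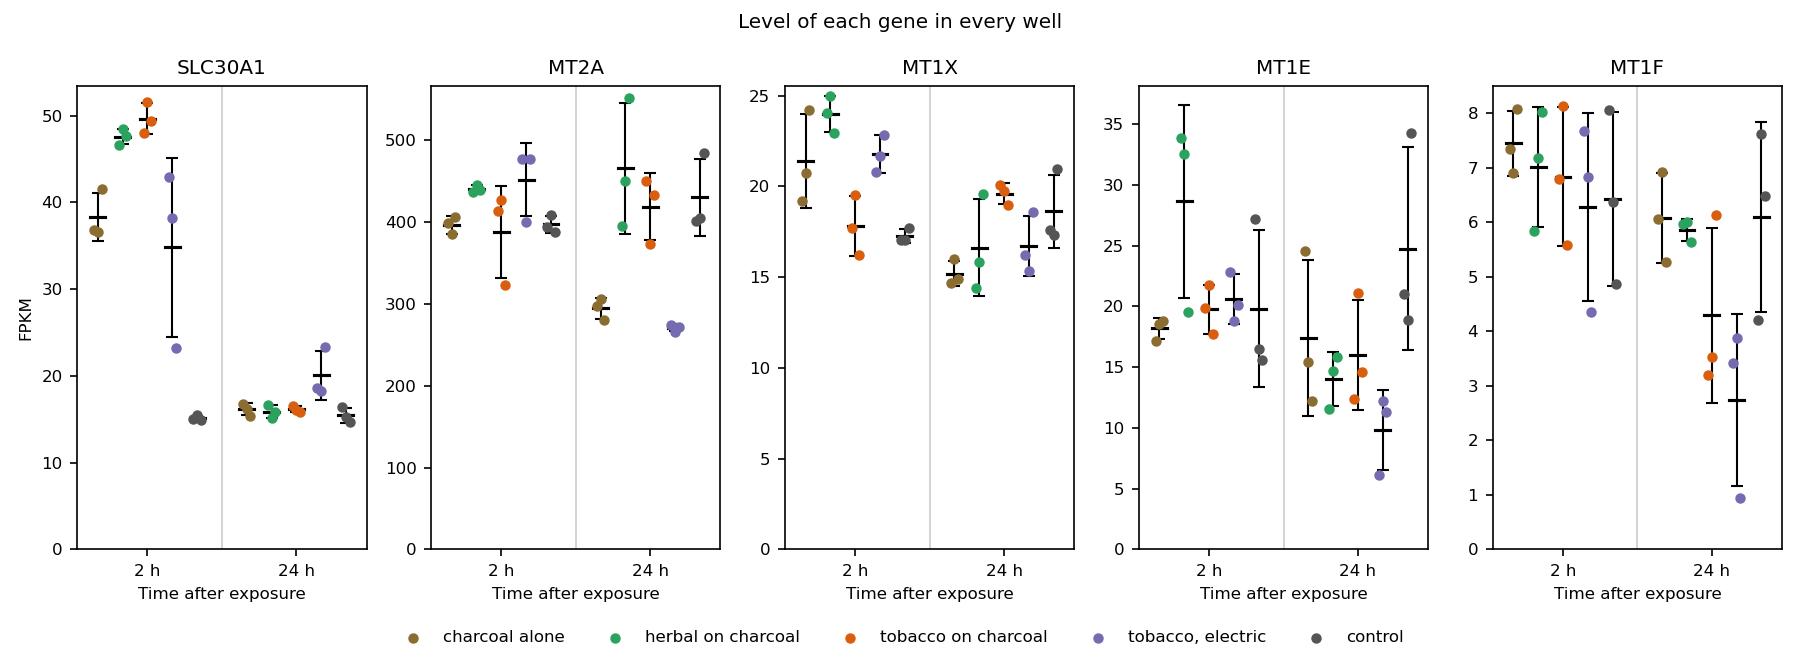
FPKM of SLC30A1, MT2A, MT1X, MT1E and MT1F in every well at 2 h and 24 h after exposure, with each group's 3 wells as points and its mean and SD as black bars; the y axes start at 0 and differ between genes. SLC30A1 was between 23.3 and 51.6 FPKM in all 12 exposed wells at 2 h, above its control wells at 15 to 15.5, and MT2A was lowest at 24 h after charcoal alone and after tobacco on the electric heater.

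SLC30A1, the zinc exporter, was higher 2 h after every exposure. It had 36.8, 36.6 and 41.5 FPKM in the 3 wells after charcoal alone and 46.6, 48.4 and 47.6 FPKM after herbal shisha on charcoal. After tobacco on charcoal it had 48.0, 51.6 and 49.4 FPKM, and after tobacco on the electric heater 42.9, 38.2 and 23.3 FPKM, against 15, 15.5 and 15 FPKM in control wells. Every exposed well was above every control well, and the low well was the third one of the electric heater. In RNA from whole wells, more cells with a transcript and more transcript per cell cannot be told apart.

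The ratios of the means were 2.53 for charcoal alone, 3.14 for herbal shisha, 3.28 for tobacco on charcoal and 2.30 for tobacco on the electric heater. All 4 rises passed the test, which was limma on log2(FPKM + 1) with Benjamini-Hochberg adjustment over the 8531 genes. The log2 changes were 1.28 for charcoal alone (SE 0.13, adjusted p = 5.71e-08), 1.59 for herbal shisha (adjusted p = 1.64e-09) and 1.65 for tobacco on charcoal (adjusted p = 1.13e-09). For the electric heater the log2 change was 1.1 (SE 0.13, adjusted p = 4.92e-07), and 1.36 (adjusted p = 5.48e-12) without the third of its wells.

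By 24 h the level of SLC30A1 was close to control except after tobacco on the electric heater. It had 16.8, 16.2 and 15.4 FPKM after charcoal alone, 16.7, 15.1 and 15.9 after herbal shisha and 16.5, 16 and 15.9 after tobacco on charcoal. After tobacco on the electric heater it had 18.6, 18.3 and 23.3 FPKM, against 16.4, 15.3 and 14.7 FPKM in control wells. The electric heater wells were all above the control wells, whereas the wells of the other 3 exposures overlapped with them.

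The electric heater rise at 24 h was small (log2 change 0.35, SE 0.13, adjusted p = 0.0197). That call was lost without the third electric heater well (0.24, adjusted p = 0.131) and without the third control well (0.32, adjusted p = 0.0625). For the other exposures SLC30A1 was not called: the 95% intervals of the log2 change were -0.20 to 0.32 for charcoal alone, -0.23 to 0.30 for herbal shisha and -0.20 to 0.32 for tobacco on charcoal.

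Ordered by group mean, SLC30A1 was at 49.6 ± 1.79 FPKM (SD, n = 3 in each group here and below) after tobacco on charcoal at 2 h and at 47.6 ± 0.892 after herbal shisha at 2 h, and these wells overlapped. Charcoal alone at 2 h followed, at 38.3 ± 2.77, below the wells of both shisha groups on charcoal. Tobacco on the electric heater at 2 h had 34.8 ± 10.3 FPKM and overlapped with charcoal alone above it and, through the third of its wells, with its own 24 h group below it, at 20.1 ± 2.81. The remaining 5 groups, the control groups among them, lay between 15.1 and 16.1 FPKM and each overlapped with the next.

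MT2A is the main metallothionein of many human cell types and had the highest level here: in control wells at 2 h it held 90.1% of the summed FPKM of the 4 metallothioneins, against 4.5% for MT1E, 3.92% for MT1X and 1.46% for MT1F. At 2 h MT2A had 398, 385 and 406 FPKM after charcoal alone and 436, 445 and 439 after herbal shisha. It had 414, 426 and 323 FPKM after tobacco on charcoal and 477, 400.0 and 477 after tobacco on the electric heater, against 394, 409 and 388 FPKM in control wells. The herbal shisha wells were all above the control wells and the other 3 groups overlapped with them.

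No 2 h difference of MT2A from control was called. The log2 change was 0.00 after charcoal alone (95% interval -0.22 to 0.21, adjusted p = 0.991) and 0.15 after herbal shisha (-0.07 to 0.36, adjusted p = 0.278). It was -0.04 after tobacco on charcoal (adjusted p = 0.784) and 0.18 after tobacco on the electric heater (adjusted p = 0.193). Fitted on the compared groups alone, the herbal shisha difference was called (adjusted p = 0.00318).

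At 24 h MT2A was lower in 2 of the 4 conditions. It had 298, 305 and 281 FPKM after charcoal alone and 274, 266 and 272 after tobacco on the electric heater. It had 394, 449 and 551 FPKM after herbal shisha on charcoal and 450, 373 and 433 after tobacco on charcoal, against 401, 405 and 484 FPKM in control wells. The wells of charcoal alone and of the electric heater all lay below the control wells, and those of the 2 shisha groups on charcoal overlapped with them.

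MT2A fell by 0.54 on the log2 scale after charcoal alone (SE 0.10, adjusted p = 0.00156) and by 0.66 after tobacco on the electric heater (SE 0.10, adjusted p = 7.4e-06), to 0.685 and 0.630 of the control mean. Herbal shisha gave 0.11 (95% interval -0.11 to 0.32, adjusted p = 0.491) and tobacco on charcoal -0.04 (-0.25 to 0.18, adjusted p = 0.802). Both falls were called with each library left out in turn. The summed level of the 4 metallothioneins followed MT2A, at 333.2 ± 17.5 FPKM after charcoal alone and 300.1 ± 2.81 after the electric heater at 24 h, against 479.3 ± 57.3 in control wells.

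MT1X, a metallothionein of the MT1 group, was higher 2 h after 3 of the 4 exposures. It had 19.2, 20.7 and 24.2 FPKM after charcoal alone, 24.0, 25 and 23.0 after herbal shisha and 20.8, 21.7 and 22.9 after tobacco on the electric heater. After tobacco on charcoal it had 17.7, 19.5 and 16.3 FPKM, against 17.1, 17.0 and 17.7 FPKM in control wells. Only the wells of tobacco on charcoal overlapped with the control wells.

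The rises of MT1X were 0.45 on the log2 scale after herbal shisha (SE 0.09, adjusted p = 0.000492), 0.32 after tobacco on the electric heater (adjusted p = 0.0103) and 0.29 after charcoal alone (adjusted p = 0.026). Without the third electric heater well the rise of MT1X there was 0.28 (adjusted p = 0.0477). The charcoal rise was lost without the third charcoal well (0.20, adjusted p = 0.164), without the first control well (adjusted p = 0.0706) and without the second (adjusted p = 0.0715). After tobacco on charcoal the log2 change of MT1X was 0.04 (95% interval -0.15 to 0.23, adjusted p = 0.786).

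At 24 h MT1X was not called after any exposure. It had 14.7, 16 and 14.9 FPKM after charcoal alone, 14.4, 15.8 and 19.6 after herbal shisha, 20.1, 19.8 and 19.0 after tobacco on charcoal and 16.2, 15.4 and 18.6 after tobacco on the electric heater, against 17.6, 17.3 and 20.9 FPKM in control wells. The charcoal wells were all below the control wells, with a log2 change of -0.27 (adjusted p = 0.0658, and 0.0465 under median-of-ratios scaling). The other log2 changes of MT1X at 24 h were -0.16, 0.07 and -0.15 after herbal shisha, tobacco on charcoal and the electric heater, with adjusted p of 0.21, 0.558 and 0.173. Without the third herbal shisha well the herbal difference was called (-0.28, adjusted p = 0.0371).

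The reads of MT1X cannot be fully told apart from those of its relatives. Of the 401 stretches of 50 bases (the read length) in its GENCODE transcript, 181, or 45.1%, also occur in transcripts of other genes, chiefly AC026461.1, MT1G and the pseudogene MT1XP1. The share was 4.88% for MT2A, 5.34% for MT1E, 0.272% for MT1F and 0 for SLC30A1. The sources used here do not say how such reads were assigned.

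MT1E and MT1F, 2 further MT1 genes, varied more between wells of a group: the median coefficient of variation over the 10 groups was 28% for MT1E and 21.8% for MT1F, against 7.0% for MT2A, 6.94% for MT1X and 4.62% for SLC30A1. At 2 h MT1E had 17.2, 18.6 and 18.8 FPKM after charcoal alone and 33.9, 32.6 and 19.5 after herbal shisha. It had 19.8, 21.7 and 17.7 FPKM after tobacco on charcoal and 22.8, 18.8 and 20.1 after tobacco on the electric heater, against 27.2, 16.5 and 15.6 FPKM in control wells. All 4 groups overlapped with control and none was called, with log2 changes of -0.07 to 0.52. The herbal shisha difference, 0.52 (adjusted p = 0.143), was called without the first control well (0.76, adjusted p = 0.048) or without the third herbal well (0.76, adjusted p = 0.0476).

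At 24 h MT1E had 24.5, 15.5 and 12.2 FPKM after charcoal alone, 11.6, 14.7 and 15.8 after herbal shisha, 12.4, 21.1 and 14.6 after tobacco on charcoal and 6.10, 12.2 and 11.3 after tobacco on the electric heater, against 21.0, 18.9 and 34.3 FPKM in control wells. The wells of herbal shisha and of the electric heater all lay below the control wells. MT1E fell by 1.25 on the log2 scale after the electric heater (SE 0.27, adjusted p = 0.000342), to 0.399 of the control mean, and without the third control well it fell by 1.00 (adjusted p = 0.00462). It fell by 0.74 after herbal shisha (SE 0.27, adjusted p = 0.0467), a call lost in 9 of 12 alternatives, among them without the third control well (-0.49, adjusted p = 0.227) and with a replicate block (adjusted p = 0.0572). After charcoal alone and tobacco on charcoal the log2 changes of MT1E were -0.49 (adjusted p = 0.291) and -0.58 (adjusted p = 0.0859), and the second of these was called without the second tobacco on charcoal well (-0.79, adjusted p = 0.0363).

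MT1F had the lowest level of the 4 metallothioneins. At 2 h it had 7.35, 6.91 and 8.08 FPKM after charcoal alone, 5.85, 7.18 and 8.03 after herbal shisha, 6.80, 8.14 and 5.58 after tobacco on charcoal and 7.67, 6.84 and 4.36 after tobacco on the electric heater, against 8.06, 6.37 and 4.87 FPKM in control wells. Every group overlapped with control, and the log2 changes of -0.04 to 0.20 were not called. At 24 h MT1F had 6.05, 6.93 and 5.27 FPKM after charcoal alone, 5.96, 6.0 and 5.64 after herbal shisha, 3.21, 3.53 and 6.14 after tobacco on charcoal and 3.42, 3.88 and 0.935 after tobacco on the electric heater, against 4.20, 7.61 and 6.48 FPKM in control wells.

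Only the electric heater wells lay wholly below the control wells at 24 h, the third of them lowest. MT1F fell by 1.00 on the log2 scale there (SE 0.27, adjusted p = 0.00233), and without the third of these wells it fell by 0.58 (adjusted p = 0.0345). Fitted on the compared groups alone the fall was not called (adjusted p = 0.0596). For MT1E in all 30 libraries and for MT1F in 23, the deposited values carry more than 6 decimals, as do values of 7849 rows in all, and the sources used here do not say how these were made.

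**Figure D2:**
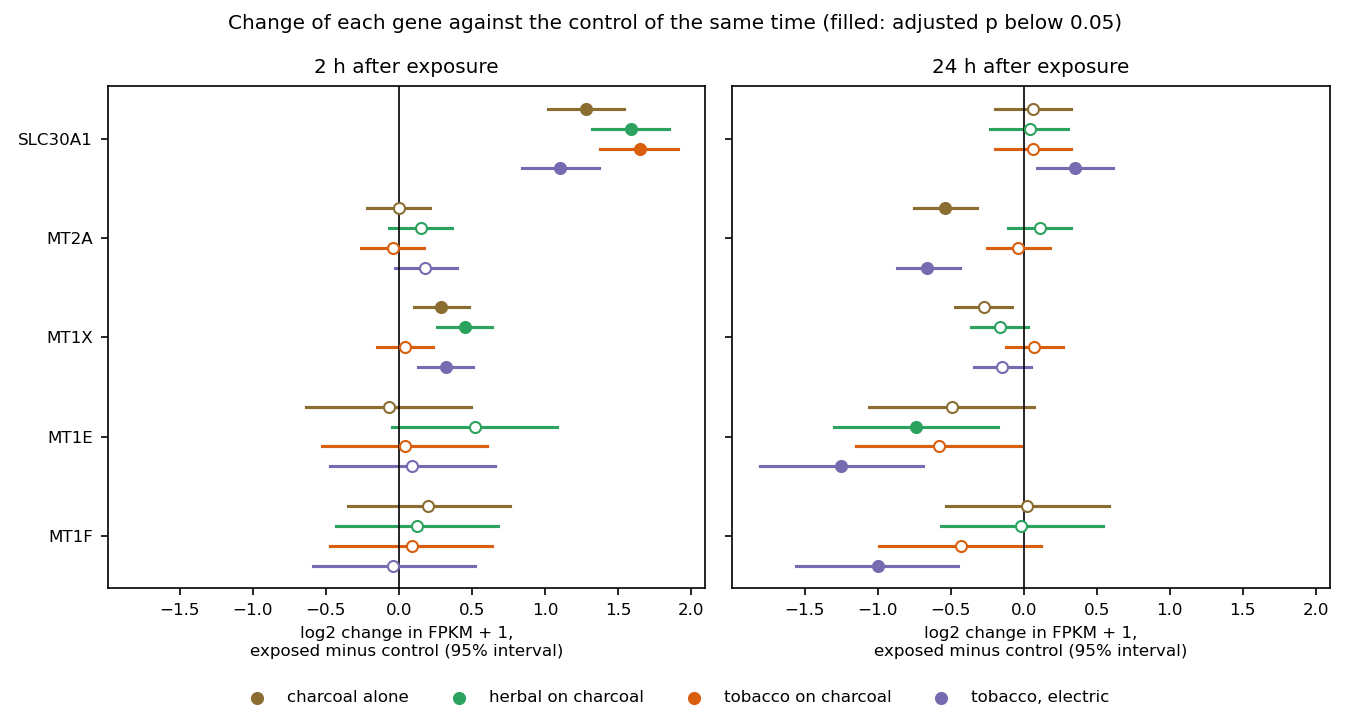
Log2 change of FPKM + 1, exposed minus control of the same time, with its 95% interval, for each gene and exposure at 2 h (left) and 24 h (right); filled points had an adjusted p below 0.05. At 2 h the SLC30A1 changes of 1.1 to 1.65 stand right of all metallothionein changes. At 24 h the 5 called metallothionein falls, of 0.54 to 1.25, stand left of 0, 3 of the 5 after tobacco on the electric heater.

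Counted over the 5 genes, 2 rose and none fell at 2 h after charcoal alone, where 8.16% of all genes tested rose (11.2% under median-of-ratios scaling). Likewise 2 rose after herbal shisha, where 10.6% of all genes rose (19.1% under scaling), and 2 after tobacco on the electric heater, where 9.27% rose (16.8% under scaling). After tobacco on charcoal 1 rose, SLC30A1, where 8.5% of all genes rose (17.2% under scaling). Without scaling more genes fell than rose at 2 h: 16.2% fell after charcoal alone, 27.7% after herbal shisha, 26.7% after tobacco on charcoal and 24.8% after the electric heater, and under scaling these shares were 8.06%, 19%, 17.7% and 19.7%. In all, 24.4%, 38.2%, 35.2% and 34% of all genes changed at 2 h after charcoal alone, herbal shisha, tobacco on charcoal and the electric heater. The median log2 change of the 5 genes at 2 h was 0.20, 0.45, 0.04 and 0.18 in the same order of exposures, beside -0.08, -0.07, -0.08 and -0.04 over all genes.

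At 24 h, 1 of the 5 fell after charcoal alone, MT2A, where 3.82% of all genes fell (5.09% under scaling), and 1 fell after herbal shisha, MT1E, where 10.4% fell (12.7% under scaling). In these comparisons 6.05% and 16.5% of all genes rose (4.88% and 11.7% under scaling), and 9.87% and 26.8% changed in either direction. After tobacco on charcoal limma called none of the 5, with 1 at an unadjusted p below 0.05, where 44.5% of all genes changed. There 25.9% of all genes rose and 18.6% fell (21.3% and 21.9% under scaling). After tobacco on the electric heater 3 fell and 1 rose, where 29.5% of all genes fell and 34.3% rose (31.9% and 31.6% under scaling). Changes were common in that comparison, at 63.8% of all genes. The median log2 change of the 5 genes at 24 h was -0.27 after charcoal alone, -0.02 after herbal shisha, -0.04 after tobacco on charcoal and -0.66 after the electric heater, beside 0.02 to 0.04 over all genes. In control wells themselves none of the 5 was called between 24 h and 2 h (limma, 0 at an unadjusted p below 0.05), where 16.9% of all genes changed.

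Exposures whose labels differ in 1 element were compared with each other at each time. Their doses were not matched by mass of smoke, so dose cannot be told apart from that element. MT2A at 24 h was higher after herbal shisha on charcoal, at 465.1 ± 79.8 FPKM, than after charcoal alone, at 294.5 ± 12.6 (log2 change 0.64, SE 0.10, adjusted p = 6.75e-05), with no overlap of wells. Against the 24 h control, MT2A had changed by 0.11 after herbal shisha (not called) and by -0.54 after charcoal alone. MT2A was the only 1 of the 5 genes called between these exposures at 24 h, where 16.2% of all genes rose and 31.5% changed. At 2 h none of the 5 was called by limma between these exposures (2 at an unadjusted p below 0.05), where 24.4% of all genes changed and 10.1% were higher. SLC30A1, whose herbal shisha wells all lay above the charcoal wells, had a log2 change of 0.31 there (95% interval 0.04 to 0.57, adjusted p = 0.0819), and it was called when only the compared groups were fitted (adjusted p = 0.00827).

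Tobacco and herbal shisha, both on charcoal, differed in 1 of the 5 genes. At 2 h MT1X was at 17.8 ± 1.63 FPKM after tobacco and 24.0 ± 0.998 after herbal shisha (log2 change -0.41, SE 0.09, adjusted p = 0.0372), where 0.305% of all genes fell. The wells did not overlap, but the call was lost in 7 of 12 alternatives, 5 of them with 1 library left out, where the log2 change was -0.35 to -0.44. SLC30A1 was at 49.6 ± 1.79 FPKM after tobacco and 47.6 ± 0.892 after herbal shisha, with a log2 change of 0.06 and a 95% interval of -0.20 to 0.32. At 24 h none of the 5 was called (limma, 1 at an unadjusted p below 0.05), where 5.12% of all genes changed. That 1 was MT1X, with a log2 change of 0.24 (adjusted p = 0.135), and it was called without the third herbal well (0.35, adjusted p = 0.0199).

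Between the heat sources, tobacco on the electric heater and tobacco on charcoal, 1 of the 5 genes was higher and 1 lower at 2 h, where 12.7% of all genes were higher and 10.6% lower (9.8% and 13.1% under scaling). SLC30A1 was lower with the electric heater, at 34.8 ± 10.3 FPKM against 49.6 ± 1.79 with charcoal (log2 change -0.54, SE 0.13, adjusted p = 0.00339). Without the third electric heater well the difference was -0.29 (adjusted p = 0.0131), and fitted on the compared groups alone it was not called (adjusted p = 0.15). MT1X was higher with the electric heater, at 21.8 ± 1.03 FPKM against 17.8 ± 1.63 (log2 change 0.28, SE 0.09, adjusted p = 0.0334), a call lost under scaling (0.24, adjusted p = 0.0653) and in 6 other alternatives, the lowest value being 0.22 without the third tobacco on charcoal well (adjusted p = 0.169).

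At 24 h 2 of the 5 genes were lower with the electric heater than with charcoal, where 24.9% of all genes were lower. MT2A was at 270.8 ± 4.33 FPKM with the electric heater and 418.4 ± 40.6 with charcoal (log2 change -0.62, SE 0.10, adjusted p = 4.17e-05). MT1E was at 9.86 ± 3.29 FPKM with the electric heater and 16 ± 4.52 with charcoal (log2 change -0.67, SE 0.27, adjusted p = 0.0476), and that call was lost in 6 of 12 alternatives, among them without the first electric heater well (-0.38, adjusted p = 0.295) and without the second tobacco on charcoal well (-0.46, adjusted p = 0.228). MT1E was also not called without the filter (adjusted p = 0.0816), on the compared groups alone (adjusted p = 0.111) or with a replicate block (adjusted p = 0.0576). MT1X, MT1F and SLC30A1 had log2 changes of -0.22, -0.57 and 0.29 (adjusted p of 0.0549, 0.085 and 0.0649). Each of these 3 was called in some leave-one-out fit, and MT1X also with the replicate block (adjusted p = 0.0415).

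**Figure D3:**
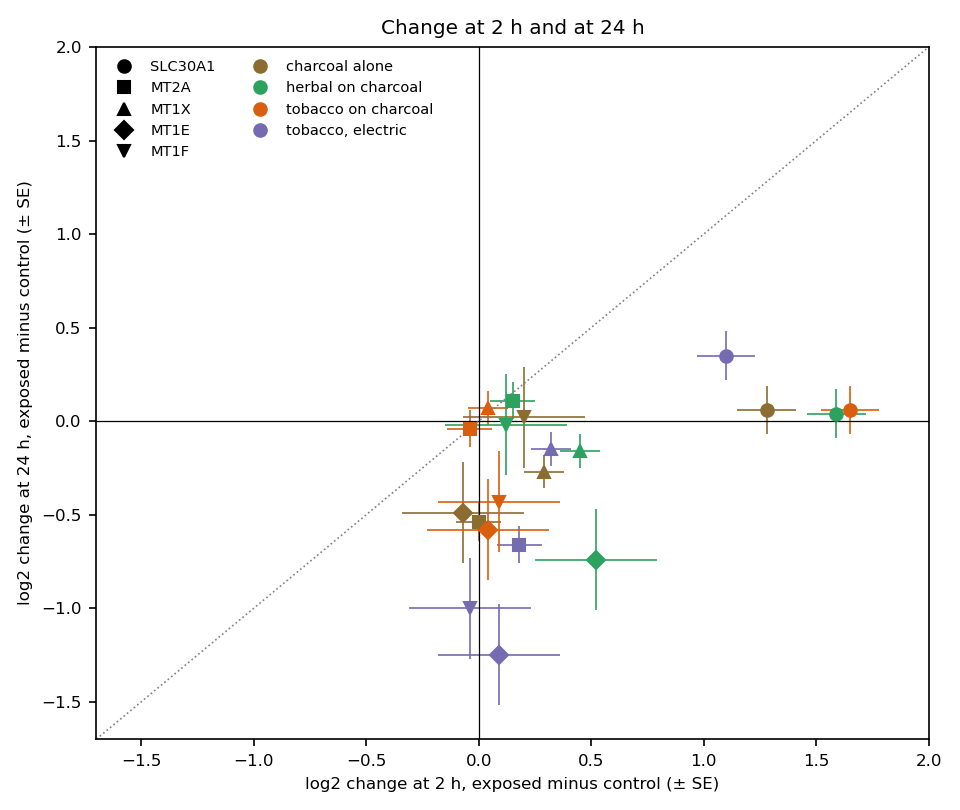
Log2 change at 24 h (y axis) against log2 change at 2 h (x axis), each exposed minus control of its own time with its SE, for the 5 genes (symbols) and 4 exposures (colours); the dotted line marks equal changes at both times. SLC30A1 lies far right at 1.1 to 1.65 and between 0.04 and 0.35 on the y axis, and all metallothionein points except MT2A and MT1X after tobacco on charcoal lie below the dotted line.

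The change against control differed between the times, as tested by the interaction of exposure and time in the same fit. The change at 24 h was called below that at 2 h for SLC30A1 after all 4 exposures, for MT1X after 3, for MT2A and MT1E after 2 and for MT1F after 1. Most differences that were not called were also negative, as the points below the dotted line show. In all, 3 of the 5 genes were called lower at 24 h than at 2 h in this sense after charcoal alone, 3 after herbal shisha, 1 after tobacco on charcoal and 5 after the electric heater. Of all genes tested, 7%, 8.3%, 10.8% and 22.8% were called in that direction in the same order of exposures (10.4%, 13.8%, 17.7% and 27.8% under scaling). The shares called in the other direction were 16.2%, 24%, 30.3% and 34.8% (8.39%, 12%, 16.3% and 29% under scaling). The median of all genes in these 4 comparisons was 0.09 to 0.13 on the log2 scale and was 0.00 to 0.01 after scaling.

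SLC30A1 and the metallothioneins did not share one profile. Over the 10 group means of log2(FPKM + 1), SLC30A1 correlated with MT1X at r = 0.65 and with MT2A at r = 0.20, while MT1E and MT1F correlated at r = 0.79 and MT2A and MT1X at r = 0.58. These values are descriptions over 10 means of libraries that share their processing. Between the highest and the lowest group mean, SLC30A1 spanned 3.28-fold, MT1E 2.91-fold, MT1F 2.71-fold, MT2A 1.72-fold and MT1X 1.58-fold.

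Of the other 8530 genes tested, those most like SLC30A1 by Pearson's r over the 10 group means were KRTAP2-3, a hair keratin-associated protein gene (r = 0.992), KLF10, a transcription factor induced by TGF-beta (r = 0.989), and PPP1R3B, a glycogen-targeting subunit of protein phosphatase 1 (r = 0.984). KRTAP2-3 had group means of 2.87 to 4.52 FPKM in the exposed groups at 2 h and of 0.0466 to 0.414 in all others. It passed the filter only through the exposed wells at 2 h, so its r reflects a contrast with values near 0. KLF10 was at 58.0 ± 6.56 FPKM after charcoal alone, 133 ± 4.27 after herbal shisha and 112 ± 17.2 after tobacco on charcoal at 2 h, against 10.9 ± 0.513 in control wells. After tobacco on the electric heater KLF10 had 123, 105 and 34.2 FPKM in the 3 wells, the third lowest as for SLC30A1. PPP1R3B had 9.47, 7.18 and 3.52 FPKM in those 3 wells and KRTAP2-3 had 4.38, 2.81 and 1.43. That library had the highest sum of FPKM over the rows kept, 216839, against 209699 and 207662 in the other wells of its group, and the part of this in the SLC30A1 value was not tested.

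Among the genes most like MT2A were CENPW, a centromere protein (r = 0.944), and DTD1, a deacylase of mischarged tRNA (r = 0.925). MT1F was most like ADAM12, a metalloprotease (r = 0.970), CALD1, an actin-binding protein (r = 0.968), and CACNG4 (r = 0.967). MT1E was most like LPP-AS2 (r = 0.954), MMP24, a membrane matrix metalloprotease (r = 0.939), and ANAPC15, a subunit of the anaphase-promoting complex (r = 0.925). LPP-AS2 was near the filter, with group means of 0.527 to 1.7 FPKM and 1.75, 0.909 and 0.729 FPKM in control wells at 2 h. ANAPC15 had 26.4, 42.4 and 43.0 FPKM after tobacco on charcoal at 2 h. For MT1X the highest values were lower, at r = 0.881 for CSRP1, 0.870 for KANTR and 0.840 for PRSS23. PRSS23 differed widely between wells of a group, with 55.9, 57.4 and 6.45 FPKM in control wells at 2 h, so that single wells weigh on its group means. KANTR at 24 h after tobacco on charcoal had 3.57, 3.40 and 13.7 FPKM, so that its mean there rests on the third well.

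**Figure D4:**
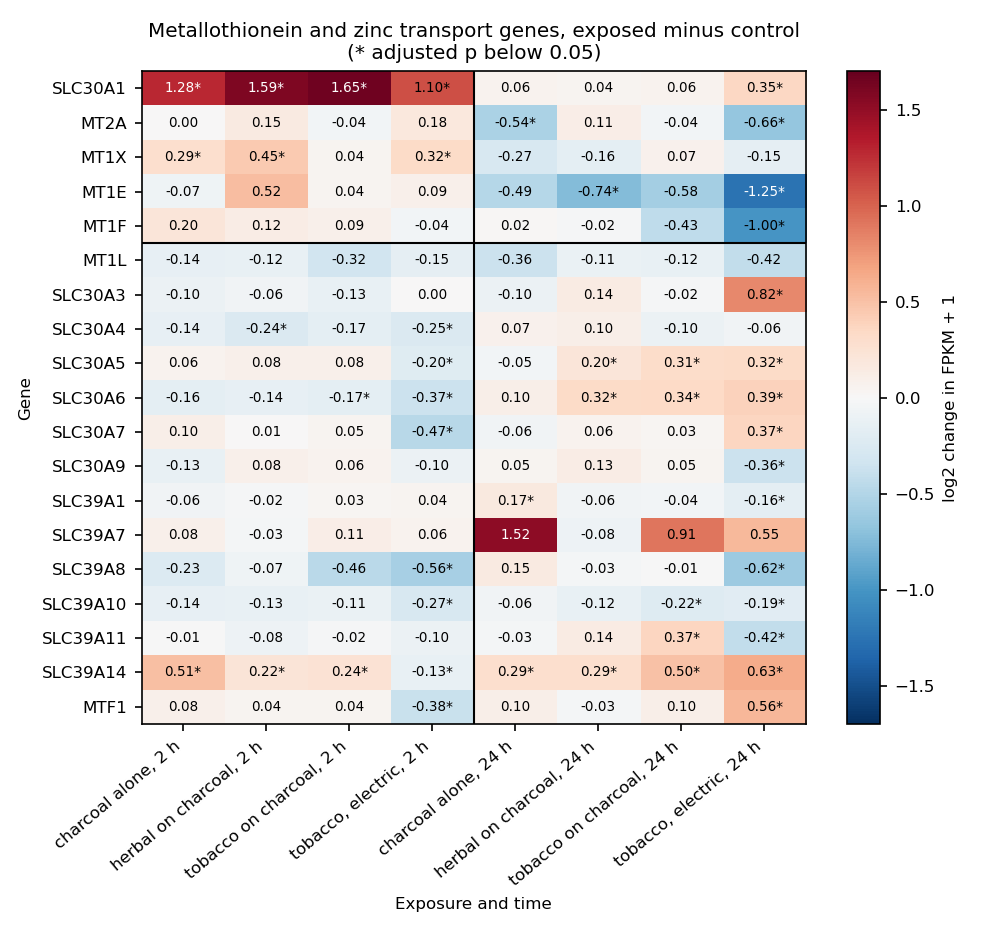
Log2 change of FPKM + 1, exposed minus control of the same time, for the 5 genes (above the line) and MT1L, MTF1 and the zinc transport genes that passed the filter, with columns for the 4 exposures at 2 h and then at 24 h; stars mark an adjusted p below 0.05. SLC30A1 is the only zinc exporter with a change above 1 and SLC39A14 is starred in every column; SLC39A7, with large values and no star, was listed at 0 in 11 of the 30 wells.

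The files hold 12 other metallothionein names, of which MT1L and MT1JP passed the filter. MT1JP is a pseudogene, was not on the list and was added after its values were seen. At 24 h it had 2.21, 3.12 and 3.30 FPKM after tobacco on the electric heater, against 5.21, 5.47 and 4.88 FPKM in control wells, with no overlap. MT1JP fell by 0.68 on the log2 scale there (SE 0.14, adjusted p = 0.00013), a call kept with each library left out, and limma called it in none of the other 7 comparisons with control (0 at an unadjusted p below 0.05). The 35 stretches of 50 bases that MT1E shares with other transcripts all occur in MT1JP, and the part of this in either value was not tested. For MT1L the group means were between 2.77 and 4.43 FPKM, and limma called it in none of the 8 comparisons with control (0 at an unadjusted p below 0.05). MT1B, MT1G, MT1H, MT3 and MT4 were listed at 0 in all wells, and MT1A, MT1HL1 and MT1M were above 0 in 1, 1 and 3 wells. The pseudogenes MT1DP and MT1IP also stayed below the filter.

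Of 9 other zinc exporters 6 passed the filter. SLC30A5, SLC30A6 and SLC30A7 fill the secretory pathway with zinc, and 2 h after tobacco on the electric heater all 3 fell together with SLC30A4, 4 of 6 in all, where 24.8% of all genes fell (19.7% under scaling). The falls were 0.20 for SLC30A5, 0.37 for SLC30A6, 0.47 for SLC30A7 and 0.25 for SLC30A4 on the log2 scale. After herbal shisha and tobacco on charcoal at 2 h, 1 fell in each, SLC30A4 by 0.24 and SLC30A6 by 0.17, where 27.7% and 26.7% of all genes fell. Under scaling none fell and 2 rose in each, where 19% and 17.7% of all genes fell and 19.1% and 17.2% rose. After charcoal alone limma called none at either time (2 at an unadjusted p below 0.05 at 2 h and 0 at 24 h), where 24.4% and 9.87% of all genes changed. At 24 h SLC30A5 and SLC30A6 rose after herbal shisha (0.20 and 0.32), after tobacco on charcoal (0.31 and 0.34) and after the electric heater (0.32 and 0.39). Of all genes, 16.5%, 25.9% and 34.3% rose in these comparisons. After the electric heater SLC30A7 and SLC30A3 also rose, SLC30A3 being at 2.20 ± 0.384 FPKM against 0.810 ± 0.142 in control wells, and SLC30A9 fell by 0.36, where 34.3% of all genes rose and 29.5% fell.

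The zinc importers are the SLC39A genes, of which 9 of 14 were found and 6 passed the filter. SLC39A14, which carries zinc, iron and manganese into cells, rose after the 3 charcoal exposures at 2 h, to 27.7 ± 0.735 FPKM after charcoal alone, against 19.2 ± 0.778 in control wells (log2 change 0.51, adjusted p = 5.84e-08). Its rises after herbal shisha and tobacco on charcoal at 2 h were 0.22 and 0.24. After the electric heater at 2 h SLC39A14 fell by 0.13 (adjusted p = 0.0439, and 0.286 under scaling), while SLC39A8 and SLC39A10 fell by 0.56 and 0.27. At 24 h SLC39A14 rose after all 4 exposures, most after the electric heater, at 27.4 ± 0.830 FPKM against 17.4 ± 0.698 in control wells (log2 change 0.63, adjusted p = 4.08e-10). At 24 h after the electric heater the other 4 called importers fell, where 29.5% of all genes fell: SLC39A8 by 0.62, SLC39A11 by 0.42, SLC39A10 by 0.19 and SLC39A1 by 0.16. At 24 h SLC39A1 rose by 0.17 after charcoal alone, and after tobacco on charcoal SLC39A11 rose by 0.37 and SLC39A10 fell by 0.22.

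MTF1, the transcription factor that reads out zinc, was called only in the electric heater groups among the 8 comparisons with control. It was at 2.99 ± 0.452 FPKM at 2 h against 4.18 ± 0.154 in control wells (log2 change -0.38, SE 0.07, adjusted p = 0.00029). At 24 h MTF1 was at 6.45 ± 0.822 FPKM against 4.03 ± 0.0734 in control wells (log2 change 0.56, SE 0.07, adjusted p = 6.43e-07). In the other 6 comparisons its log2 change was between -0.03 and 0.10.

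Metallothioneins also bind copper, and some are glucocorticoid responsive, so the genes of copper and iron handling and glucocorticoid receptor targets were counted beside them. Of 5 copper genes tested, 4 rose after tobacco on charcoal at 24 h (3 under scaling, without ATOX1, adjusted p = 0.157), where 25.9% of all genes rose. After the electric heater at 24 h 4 rose and ATP7B fell by 0.22 (adjusted p = 0.00774), where 34.3% of all genes rose and 29.5% fell, with the importer SLC31A1 at 18.8 ± 0.168 FPKM after the electric heater against 13.3 ± 0.130 in control wells. At 2 h after the electric heater 3 of the 5 copper genes fell, ATP7A, ATP7B and SLC31A1, where 24.8% of all genes fell. Under scaling, where 19.7% fell, SLC31A1 was not called (-0.13, adjusted p = 0.0782) and ATOX1 was called higher (0.14, adjusted p = 0.041). Of 9 iron genes tested, 3 rose and 4 fell at 24 h after the electric heater, where 63.8% of all genes changed, so that the count is near the share over all genes. There the transferrin receptor TFRC was at 82.2 ± 1.52 FPKM against 45.5 ± 1.94 in control wells. Under scaling 6 iron genes fell there, where 31.9% of all genes fell. At 2 h after the electric heater 4 iron genes fell, where 24.8% of all genes fell, and 2 under scaling, where 19.7% fell.

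Of 6 glucocorticoid receptor targets tested, 4 rose and none fell 2 h after charcoal alone and after herbal shisha, 5 rose and 1 fell after tobacco on charcoal, and 4 rose and 1 fell after the electric heater. Of all genes, 8.16%, 10.6%, 8.5% and 9.27% rose in these comparisons (11.2%, 19.1%, 17.2% and 16.8% under scaling). Under scaling KLF9 was also called after the electric heater (0.61, adjusted p = 0.0397), which gives 5 rises there. The phosphatase gene DUSP1, which many stimuli induce, was at 526 ± 50.9 FPKM after the electric heater against 20.7 ± 1.38 in control wells. At 24 h limma called none of the 6 after charcoal alone (0 at an unadjusted p below 0.05), where 9.87% of all genes changed. KLF9 alone fell after herbal shisha, where 10.4% of all genes fell. After tobacco on charcoal 1 rose and 2 fell, where 44.5% of all genes changed. There KLF9 was at 4.52 ± 1.34 FPKM against 16.8 ± 3.69 in control wells (log2 change -1.7, adjusted p = 3.44e-06). At 24 h after the electric heater 4 of the 6 rose and 2 fell, where 63.8% of all genes changed. FKBP5, which was lower after both tobacco exposures at 2 h (log2 changes of -0.16 on charcoal and -0.22 on the electric heater), was not called on charcoal under scaling (adjusted p = 0.222).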

How the data were processed

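RNA from BEAS-2B cells was made into libraries with an Illumina TruSeq RNA kit and read as 50-base single reads, per the labels. Per the submitters' processing notes, HISAT2 2.1.0, StringTie 1.3.4d and the build hg38 were used. The deposited per-sample files hold FPKM values for 29190 transcript rows, and no read counts, so no count test was run and the depth is unknown. No added normalization between libraries is recorded in the files.

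For a name on several rows the row with the highest mean was kept (22538 names). Of 27 names turned into date serials, 26 were recovered from their RefSeq accessions. Genes with at least 1 FPKM in at least 3 libraries (8531) were tested with limma 3.58.1 (trend) in R 4.3.3 on log2(FPKM + 1), with 1 mean per group, all 30 libraries sharing 1 estimate of the spread (20 residual degrees of freedom, prior 2.76), and Benjamini-Hochberg adjustment over all genes tested in each comparison. Log2 changes on this scale understate those of low genes. Calls were made at adjusted p below 0.05. The fit was tested on simulated data. Alternatives were median-of-ratios scaling, no filter, a pseudocount of 0.1, summed rows, a fit on the compared groups alone, a replicate block and leaving out each library. The named genes were the 5 members, the 3 genes most like each (1 of those for MT2A is not reported here), every listed other metallothionein and zinc exporter past the filter, and of the zinc importer, MTF1, copper, iron and glucocorticoid lists the 3 genes with the smallest p at each time. Values of these genes are also given outside the comparison that picked them, and SLC39A7 and MT1JP were named after their values were seen. The members and lists were chosen with earlier results of these data known. Shared 50-base stretches were counted in GENCODE v29 transcripts, and promoters and positions are from RefSeq GRCh38.p14.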

Additional observations from a re-analysis of the deposited data

Results flagged for a closer look

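The change against control differed between the 2 times for 12 pairs of gene and exposure, tested as the interaction of exposure and time in the limma fit and given as the log2 change at 24 h minus that at 2 h. All 12 were negative. For SLC30A1 the difference was -1.22 after charcoal alone (adjusted p = 2.78e-05), -1.55 after herbal shisha (adjusted p = 1.03e-06), -1.59 after tobacco on charcoal (adjusted p = 6.4e-07) and -0.75 after tobacco on the electric heater (adjusted p = 0.00109). Without the third electric heater well at 2 h the last of these was -1.01 for SLC30A1 (adjusted p = 6.92e-08). For MT1X it was -0.56 after charcoal alone (adjusted p = 0.00329), -0.61 after herbal shisha (adjusted p = 0.00115) and -0.47 after the electric heater (adjusted p = 0.00433). For MT2A it was -0.54 after charcoal alone (adjusted p = 0.0101) and -0.84 after the electric heater (adjusted p = 4.2e-05). For MT1E it was -1.26 after herbal shisha (adjusted p = 0.0155, and 0.05 without the third control well at 24 h) and -1.34 after the electric heater (adjusted p = 0.00475). For MT1F it was -0.97 after the electric heater (adjusted p = 0.0331), a call lost in 8 alternatives, among them without the third electric heater well at 24 h (-0.55, adjusted p = 0.142).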

How the results depend on the processing

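Of 95 differences (5 genes in 19 comparisons), 31 were called. In these comparisons from 0.61% to 63.8% of all genes tested were called in either direction. Of the 31, 23 were called with each library left out in turn, and none of the 31 changed sign in any alternative run. Calls lost and gained were 1 and 1 under median-of-ratios scaling, 5 and 0 without the filter, 7 and 3 on the compared groups alone, 1 and 0 with a pseudocount of 0.1 and 0 and 0 with summed rows. Deviations of same-numbered wells from their group means correlated at r of -0.107 to 0.177 at 2 h (median 0.026) and -0.085 to 0.231 at 24 h (median 0.043). Wells of different numbers were not compared in this way, so these values cannot decide whether the numbers pair the wells. The replicate block lost 2 calls and gained 1, and left 0 of the 5 genes called after herbal shisha at 24 h. The depth is unknown, so no limit from it can be given.

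The number of the 5 genes called moved from 1 to 0 after herbal shisha against control at 24 h without the filter, on the compared groups alone and with a pseudocount of 0.1. For charcoal alone against control at 24 h it moved to 2 under scaling. For herbal shisha against charcoal alone at 2 h it moved to 2 on the compared groups alone, and for tobacco against herbal shisha at 2 h to 0 there and without the filter. For the electric heater against charcoal it moved to 1 at 2 h under scaling and without the filter and to 0 on the compared groups alone, and at 24 h to 1 without the filter and on the compared groups alone. With 1 library left out these numbers ranged from 1 to 2 for charcoal alone against control at 2 h, from 0 to 1 for herbal shisha against control and for tobacco on charcoal against control at 24 h, from 0 to 1 for tobacco against herbal shisha at both times, and from 1 to 2 at 2 h and 1 to 4 at 24 h for the electric heater against charcoal. On the compared groups alone the number of all genes called was 1465 (2289 in the full fit) after herbal shisha at 24 h, 569 (1991) and 2559 (4078) for the electric heater against charcoal at 2 h and 24 h, and 7 (52) and 0 (437) for tobacco against herbal shisha at 2 h and 24 h. With 1 library left out these last 2 ranged from 4 to 57 and from 45 to 746. The other such counts of all genes that moved by over 1.5 times ranged from 511 to 602 (842) for charcoal alone against control at 24 h, from 885 to 1071 (1440) between control times, from 1364 to 1807 (2083) and 1770 to 2859 (2687) for herbal shisha against charcoal alone at 2 h and 24 h, from 1420 to 2317 for herbal shisha against control at 24 h, and from 1237 to 1991 for the electric heater against charcoal at 2 h.

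Sign changes occurred only in 29 differences that were not called, and the cause was not tested. Under scaling the log2 values were 0.006 for MT1E and 0.082 for MT2A after charcoal alone at 2 h, -0.001 for MT1F after charcoal alone at 24 h, 0.02 for MT1F after the electric heater at 2 h, 0.056 for MT2A after tobacco on charcoal at 2 h, and -0.104 for MT1X and -0.138 for MT2A in the interaction with time after tobacco on charcoal.

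With 1 library left out the log2 values ranged, for MT2A, -0.02 to 0.019 (charcoal alone at 2 h), -0.024 to 0.217 (herbal shisha at 24 h), -0.173 to 0.068 (the herbal shisha interaction), -0.118 to 0.081 (tobacco on charcoal at 2 h), -0.092 to 0.05 (tobacco on charcoal at 24 h) and -0.119 to 0.095 (the tobacco on charcoal interaction). They ranged, for MT1X, -0.007 to 0.202 (herbal shisha over charcoal alone at 24 h), -0.024 to 0.101 (tobacco on charcoal at 2 h) and -0.027 to 0.116 (the tobacco on charcoal interaction). They ranged, for MT1E, -0.214 to 0.168 (charcoal alone at 2 h), -0.458 to 0.018 (herbal shisha over charcoal alone at 24 h), -0.017 to 0.124 (the electric heater over charcoal at 2 h), -0.104 to 0.278 (tobacco on charcoal at 2 h), -0.047 to 0.335 (the electric heater at 2 h) and -0.049 to 0.313 (tobacco over herbal shisha at 24 h). They ranged, for MT1F, -0.187 to 0.176 (charcoal alone at 24 h), -0.235 to 0.133 (control 24 h over 2 h), -0.172 to 0.027 (herbal shisha over charcoal alone at 2 h), -0.124 to 0.046 (herbal shisha over charcoal alone at 24 h), -0.037 to 0.276 (herbal shisha at 2 h), -0.226 to 0.137 (herbal shisha at 24 h), -0.348 to 0.019 (the herbal shisha interaction), -0.262 to 0.086 (the electric heater over charcoal at 2 h), -0.073 to 0.24 (tobacco on charcoal at 2 h), -0.195 to 0.172 (the electric heater at 2 h) and -0.153 to 0.084 (tobacco over herbal shisha at 2 h). They ranged, for SLC30A1, -0.015 to 0.058 (control 24 h over 2 h), -0.056 to 0.011 (herbal shisha over charcoal alone at 24 h) and -0.011 to 0.056 (tobacco over herbal shisha at 24 h).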
